A study of Homo sapiens with 4 samples.

Results

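Hs746T, an established gastric carcinoma cell line that carries both a MET amplification and a MET exon skipping mutation, was used to ask how suppression of the receptor tyrosine kinase MET alters immune genes in tumor cells. Here the genes of the HLA class II presentation pathway and their transactivator CIITA were examined, 10 genes that were taken by name, with earlier results of these data known. They had 20 of the 34127 probes other than controls on the array, matched by RefSeq accession, and the array named 19740 genes in all. The conditions were DMSO (the control of the inhibitor), PHA665752 (a small-molecule MET inhibitor), sc siRNA (a scrambled control) and MET siRNA, with 1 single-colour array each. All of them share the same line grown in DMEM with serum, the siRNAs were delivered with Lipofectamine, and for the arrays the sources used here give neither dose nor duration of PHA665752. A single line and a single array of MET siRNA limit what the data stand for, and with 1 array per condition there was no replicate error and no test.

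HLA class II molecules are pairs of an α and a β chain that present peptides from the endosomal pathway to CD4+ T cells. The chains assemble on the invariant chain CD74, the remnant of which is exchanged for peptide with the help of HLA-DM, while HLA-DO restrains HLA-DM. Their genes share an upstream X and Y box module that is bound by the RFX, CREB and NF-Y factors, on which CIITA, itself inducible by interferon-γ through IRF1 among others, acts as co-activator. Constitutive expression is typical of dendritic cells, macrophages and B cells, and many tumor cells express class II genes weakly or after interferon.

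The promoter windows of RefSeq (GRCh38.p14, from 250 bases before to 50 after the start of a gene) covered 8 of the 10 genes, all but HLA-DRA and CIITA. The stretches that hold the module are shown because it is the regulatory feature these genes have in common. Capitals mark the letters searched, an X box core CNAGNNAC on the strand of the gene and ATTGG, or its complement CCAAT, as the Y box, on either strand, beginning 25 to 45 bases after the start of the X letters. These letters were chosen with the windows in view. In the order printed the stretches lie at chr6:32589880-32589939 (minus strand), chr6:32637292-32637352 (plus strand), chr6:32666731-32666790 (minus strand), chr6:32953162-32953222 (minus strand) and chr5:150412949-150413003 (minus strand).
HLA-DRB1: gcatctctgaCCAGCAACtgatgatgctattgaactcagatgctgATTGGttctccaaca
HLA-DQA1: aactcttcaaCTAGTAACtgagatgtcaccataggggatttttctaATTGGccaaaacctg
HLA-DQB1: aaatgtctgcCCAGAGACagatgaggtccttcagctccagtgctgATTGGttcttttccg
HLA-DMA: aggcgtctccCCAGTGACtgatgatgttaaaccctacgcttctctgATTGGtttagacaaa
CD74: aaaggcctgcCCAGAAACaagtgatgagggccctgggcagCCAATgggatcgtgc
In these 5 genes the X letters began at -81, -104, -123, -115 and -83 relative to the start site, and the Y letters followed after 35, 36, 35, 36 and 30 bases. Of 35116 promoter windows, 0.752% held this arrangement. On either strand and at any spacing, 39.3% of windows held the X letters and 34.6% the Y letters. HLA-DMB held both kinds of letters but not in this arrangement, HLA-DPA1 the X letters alone and HLA-DPB1 the Y letters alone. These matches describe the reference sequence and were not tested for binding in these cells.

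Each value below is the spot signal after the background subtraction of the scanner software, and each ratio is the difference of log2 signals after the 75th percentile of its array was subtracted. Signals of a probe follow the array order DMSO, PHA665752, sc siRNA, MET siRNA, and ratios follow the pair order inhibitor (PHA665752 over DMSO), siRNA (MET siRNA over sc siRNA), controls (sc siRNA over DMSO). A gene is represented by its probe with the highest mean signal among those with a value on every array, and a change of more than 2-fold is called. The share of probes well above background ran from 61.1% to 68.2% over the arrays, and it was lowest with MET siRNA, where outlier marks also removed the most spots (5.58%, against 1.69% to 2.21%). Repeat spots on an array gave a noise of 0.078 for a log2 ratio, which covers spots and not cultures. The targeted gene MET (A_23_P359245) had log2 ratios of -0.93, short of 2-fold, -1.33 and 0.032 in pair order. MET RNA is not a measure of kinase inhibition. The paper reports that phosphorylated MET protein fell more with PHA665752 than after knockdown. Of the epithelial markers, KRT8, KRT18, KRT19 and EPCAM were well above background on all 4 arrays, while CDH1 was so on 3 arrays, with signals of 33.0, 30.2, 13.1 and 10.4. VIM had no probe with a value on each array. Of the markers of blood cells, several types of which use class II constitutively, MS4A1, CD1C and CD80 were well above background on no array and PTPRC had signals of 22.7 to 37.8, but 9 of 14, among them CD14 (113 to 140.2), CD79A (1502 to 1724) and FCER1G (1243 to 2299), were well above background on all. Of these markers 10 had an inhibitor ratio. With PHA665752, 2 of the 10 rose past 2-fold (SPI1 at 1.80 and ITGAX at 1.02, log2), against 13.1% of all named genes. Of the 10, 1 fell (CD83 at -1.10), against 8.04%, and the median was -0.063, against 0.075. The sum of the signals of the blood cell markers, as a multiple of the 75th percentile of the array, was 5.40, 4.22, 6.07 and 5.34 in array order. Their part in the class II values was not tested. In bulk RNA, a change in the number of expressing cells and a change in RNA per cell cannot be told apart.

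Most of the 10 genes were higher past 2-fold after PHA665752. None of the 10 changed past 2-fold after MET siRNA, where few of all genes did. With the inhibitor, 7 of the 10 genes rose past 2-fold, against 13.1% of the 14322 named genes with a ratio in this pair, and 0 fell, against 8.04% of genes. With MET siRNA, 0 of the 10 rose, against 2.04% of 13647 genes, and 0 fell, against 0.696%. These counts are near the small shares over all genes and do not set the 10 genes apart. The share of the 13647 genes with a higher siRNA ratio ran from 7.27% for HLA-DMA to 66.45% for CD74. Between the controls, sc siRNA over DMSO, 0 of the 10 rose, against 2.89% of 14274 genes, and 0 fell, against 1.16%. The median log2 ratio of the 10 genes was 1.40 for the inhibitor (0.075 over all named genes), 0.24 for the siRNA (-0.017) and 0.11 between the controls (-0.010). Of the 10 ratios, 10 were above 0 for the inhibitor, 9 for the siRNA and 8 between the controls, and the 10 inhibitor ratios were above 0 under the 8 processing alternatives that could change them as well. The siRNA ratio of HLA-DQB1, at 0.0023, was below 0 under 6 of all 11 alternatives. Over the 20 probes of these genes, 19 had an inhibitor ratio and 12 of them were past 2-fold higher, against 0 of 16 for the siRNA and 0 of 18 between the controls. Genes with several probes count more than once here, no share over all probes was computed, and this count does not add to that of the genes. The comparison of the controls shares an array with each of the others, so its values are given beside them and not as independent evidence. The median of all genes itself moved with the scaling, from 0.075 to -0.17 with PHA665752 when the 50th percentile was used, and the share of calls that were higher moved from 62.0% to 42.5%. The median of the class II genes stood 1.32 above that of all genes, and 1.08 above it with normexp and 1.09 above it when each gene took the median of its probes. Another percentile shifts every gene of a pair alike and cannot change this difference. With MET siRNA, scaling each array to the median over the probes that passed background on it moved the share of calls that were higher from 74.5% to 40.2%, and the class II median turned to -0.063. The median of all genes moved to -0.31 under that scaling. The class II siRNA median thus stood 0.25 above that of all genes under this scaling as under the main one.

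**Figure D1:**
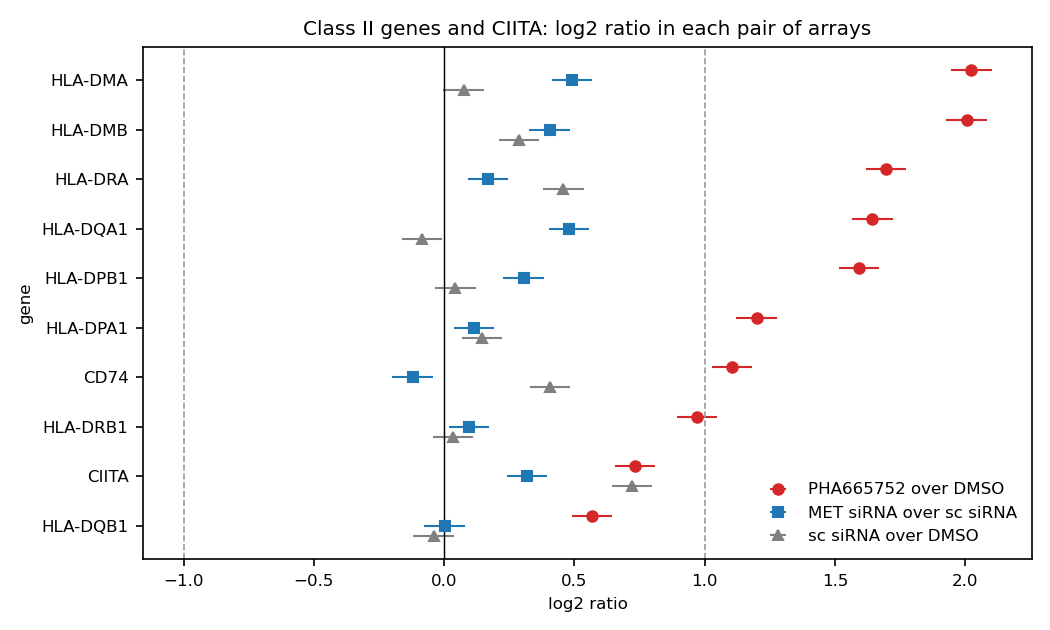
Log2 ratio (horizontal axis) of the 10 class II pathway genes for PHA665752 over DMSO (circles), MET siRNA over sc siRNA (squares) and sc siRNA over DMSO (triangles), with bars of ± 0.078, the noise between single spots, and dashed lines at 2-fold. The inhibitor ratios ran from 0.57 (HLA-DQB1) to 2.02 (HLA-DMA) and 7 lay past 2-fold, while every siRNA and control ratio lay inside the dashed lines.

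The peptide exchange genes showed the largest inhibitor ratios of the 10. HLA-DMA, the α chain of the peptide editor HLA-DM, had signals of 780.2, 2734, 689.8 and 1002 (A_23_P42306, NM_006120). The PHA665752 array was thus the highest, the MET siRNA array came next and the controls were lowest. This was a 4.07-fold rise with the inhibitor, a ratio of 1.41-fold with the siRNA and 1.05-fold between the controls. Its dimmer probe A_24_P50245 gave 4.16-fold, 1.34-fold and 1.02-fold in the same order. HLA-DMB, the β chain of the same editor, had signals of 677, 2342, 693 and 948 (A_32_P351968, NM_002118). The order of the arrays was again PHA665752, MET siRNA and then the controls. Its ratios were 4.01-fold, 1.32-fold and 1.22-fold, and the inhibitor log2 ratios of HLA-DMA (2.02) and HLA-DMB (2.01) differed by less than the noise between spots. Of the 14322 genes, 2.62% had a higher inhibitor ratio than HLA-DMA and 2.65% a higher one than HLA-DMB.

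The α chain genes rose past 2-fold with the inhibitor. HLA-DRA, the nearly invariant α chain of HLA-DR, had signals of 400.3, 1118, 461 and 535.5 (A_32_P87697, NM_019111). The PHA665752 array was the highest and DMSO the lowest. Its log2 ratios were 1.70, 0.17 and 0.46 in pair order, so the siRNA ratio was smaller than the difference between the controls. HLA-DPA1, the α chain of HLA-DP, had signals of 2121, 4199.5, 1968 and 2203 (A_23_P30913, NM_033554). Only the PHA665752 array stood apart, with log2 ratios of 1.20, 0.12 and 0.15 for inhibitor, siRNA and controls, and the second HLA-DPA1 probe gave 1.22, 0.034 and 0.18. With the 50th percentile the inhibitor ratio of HLA-DPA1 was 0.95, short of 2-fold. HLA-DQA1, the α chain of HLA-DQ, was dim, with signals of 30.1, 81.1, 23.8 and 34.3 (A_33_P3293049, NM_002122). Its log2 ratios were 1.64, 0.48 and -0.085 in the same order. With normexp background correction its inhibitor ratio was 0.59, short of 2-fold. The other HLA-DQA1 probe was well above background with PHA665752 only, where a bound of at least 1.56-fold was obtained.

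**Figure D2:**
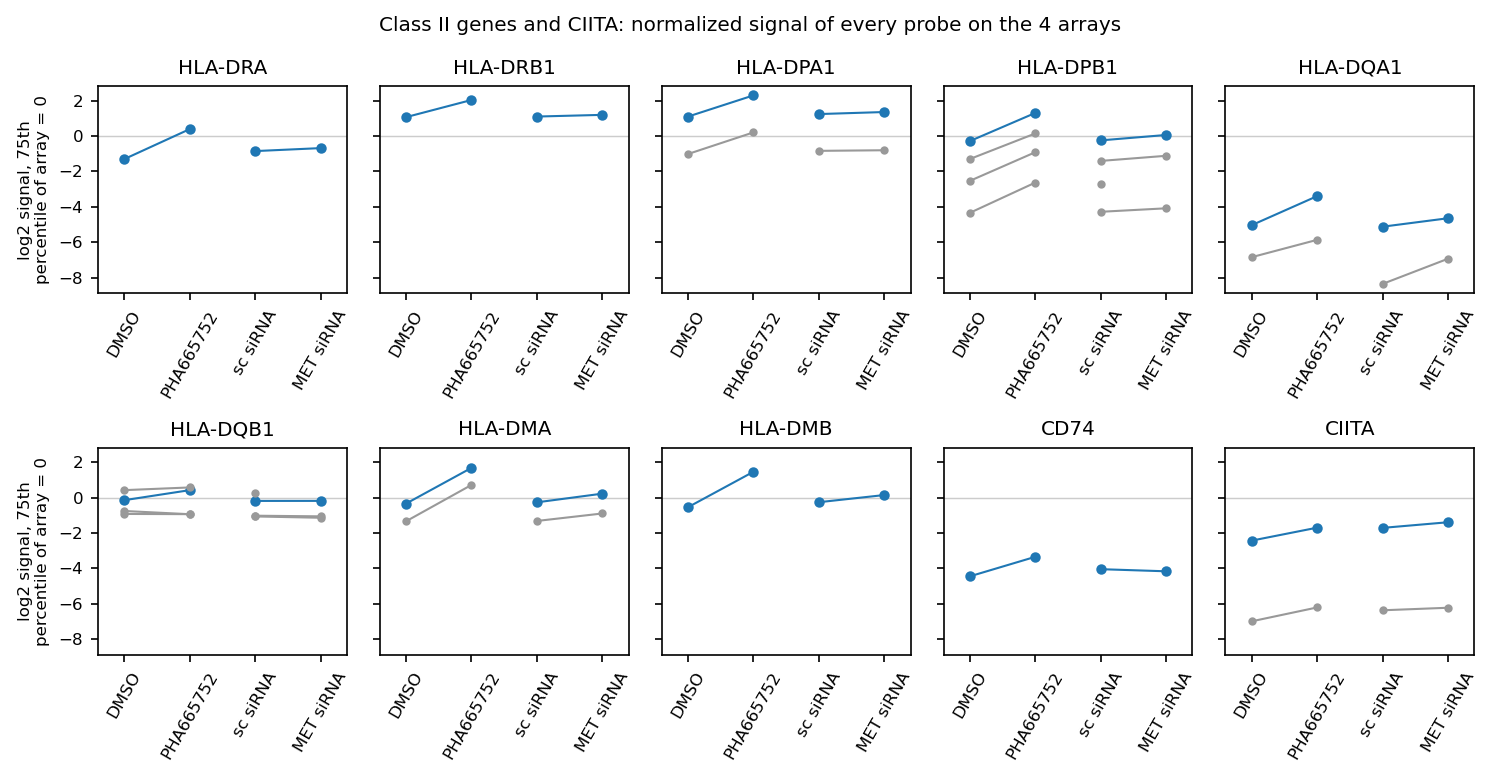
Normalized log2 signal (vertical axis, 0 is the 75th percentile of the array) of all 20 probes of the class II pathway genes on the 4 arrays (horizontal axis), with the probe that stands for its gene in blue, other probes in grey and lines within each treatment pair. The lower CIITA probe was not well above background on any array and the lower HLA-DQA1 probe on the PHA665752 array alone, levels of different probes cannot be compared, and missing points are spots removed by outlier marks.

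The β chain genes split. HLA-DPB1, the β chain of HLA-DP, had signals of 811, 2110.4, 702 and 896 (A_23_P258769, NM_002121). It rose 3.02-fold with PHA665752, and the ratios of siRNA and controls were 1.24-fold and 1.03-fold. The other 3 HLA-DPB1 probes gave inhibitor ratios of 2.73-fold to 3.28-fold, so that all its probes passed 2-fold. Of these 3, A_24_P166443 and A_33_P3271635 gave siRNA ratios of 1.22-fold and 1.15-fold, and A_33_P3271651 carried an outlier mark on the MET siRNA array. HLA-DRB1, the main β chain of HLA-DR, was printed 10 times on the array, with 1 of these spots removed by an outlier mark on each array. The 9 remaining spots ran from 1965 to 2226 with DMSO, from 3390.0 to 3689.6 with PHA665752, from 1744.5 to 1896 with sc siRNA and from 1897 to 2083 with MET siRNA. The PHA665752 spots did not overlap with those of any other array, but those of sc siRNA overlapped with neither DMSO nor MET siRNA either. These signals are not scaled between arrays, and spots of 1 array are not replicates of a condition. The inhibitor log2 ratio of HLA-DRB1 was 0.97, just short of 2-fold, the siRNA ratio 0.095 and the control ratio 0.035. The inhibitor ratio was 1.07 with quantile normalization and 1.02 with normexp, which are past 2-fold.

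HLA-DQB1, the β chain of HLA-DQ, had probes that disagreed. The probe A_23_P8108 (NM_001243962) had signals of 893, 1141, 729 and 754, highest with PHA665752, and an inhibitor log2 ratio of 0.57. For A_33_P3424217, assigned to the same accession, the inhibitor log2 ratio was -0.18, on signals of 586 and 445. A_23_P136683 (NM_001243961) gave -0.012 and A_33_P3424222 (NM_002123) gave 0.15. A_33_P3424222 was the brightest, at 1324 with DMSO, 1269 with PHA665752 and 1011 with sc siRNA. An outlier mark removed its MET siRNA spot, so A_23_P8108 stood for the gene, with the highest inhibitor ratio of the 4. The inhibitor ratios of these 4 probes thus spanned 0, and the median over them was 0.071. With MET siRNA the 3 probes with a value were at 0.0023, -0.036 and -0.074 in the order A_23_P8108, A_33_P3424217 and A_23_P136683. Between the controls the ratios of the 4 probes lay between -0.27 and -0.040. The HLA-DQB1 promoter printed above holds the X and Y letters as those of HLA-DRB1, HLA-DQA1, HLA-DMA and CD74 do. HLA-DMB, HLA-DPA1 and HLA-DPB1, which rose past 2-fold with the inhibitor, had no match to these letters in this arrangement. A missing match to the letters does not show that a promoter lacks the module. Any bearing of the letters on the ratios was not tested. HLA-DQ chains are highly polymorphic in human populations, and how these probes match the alleles of Hs746T was not tested.

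CD74, which encodes the invariant chain, was dim, with signals of 45.1, 83.7, 50.2 and 47.7 (A_23_P70095, NM_001025158). Only the PHA665752 array was clearly higher. The inhibitor log2 ratio of CD74 was 1.10, and this was the only gene of the 10 that was lower with MET siRNA, at -0.12, although HLA-DRA (-0.13), HLA-DRB1 (-0.20), HLA-DPA1 (-0.18) and HLA-DQB1 (-0.30) were lower too when arrays were scaled to the median of probes well above background. That scaling also moved the siRNA median of all genes to -0.31. Between the controls the ratio of CD74 was 0.41. The inhibitor ratio of CD74 depended on the processing, being 0.38 with normexp, 0.83 with quantile normalization, 0.86 with the 50th percentile and 0.95 with plain background subtraction, each short of 2-fold.

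CIITA, the co-activator of the family, did not pass 2-fold in any pair. The CIITA signals were 183, 262, 253 and 326 (A_32_P209960, NM_000246), so that the DMSO array was lowest and the MET siRNA array highest. The log2 ratios were 0.73, 0.32 and 0.72 in pair order. The inhibitor and control ratios of CIITA differed by less than the noise between spots. A second CIITA probe, A_33_P3324394, was not well above background on any array and gave no ratio.

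The remaining class II genes were followed as a list of 9, of which 7 had a ratio. With PHA665752, 4 of these rose past 2-fold, against 13.1% of all named genes, and 0 fell, against 8.04%, with a median log2 ratio of 1.08, while 0 did for the siRNA or between the controls, with medians of 0.16 and -0.071. HLA-DOA, the α chain of the HLA-DM inhibitor HLA-DO, had signals of 369.6, 1387, 285.5 and 392 (A_32_P356316, NM_002119). This was 4.35-fold with the inhibitor, beyond the ratio of every one of the 10 genes above, 1.33-fold with the siRNA and 0.921-fold between the controls. A dim second HLA-DOA probe (A_33_P3278968) did not follow, at 0.894-fold with the inhibitor on signals of 39.4 and 30.4. HLA-DOB, its β chain partner, was dim as well, with signals of 29.3 to 35.6 and an inhibitor ratio of 0.954-fold. The DR β chains HLA-DRB5 and HLA-DRB4 rose 2.11-fold and 2.34-fold with PHA665752, and HLA-DRB3 had a ratio of 1.63-fold. Which HLA-DRB genes the line carries is not given in the sources used here, and these genes are nearly identical to HLA-DRB1, so the probes cannot be assigned to single genes with certainty. The pseudogene HLA-DPB2 rose 2.30-fold, and HLA-DQB2 had a ratio of 1.13-fold. HLA-DQA2 was measured by a probe that was well above background with PHA665752 only, where a bound of at least 2.47-fold was obtained. A background outlier mark removed its MET siRNA spot, so HLA-DQA2 was not counted. With such marks ignored, its MET siRNA signal was 26.3, against 8.17 with sc siRNA, and the siRNA log2 ratio was 1.66. This ratio is past 2-fold but rests on a sc siRNA signal that was not well above background. HLA-DRB6 was not well above background on any array.

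Class I genes, whose products present cytosolic peptides, are given for comparison. Of 13 class I and peptide loading genes, 0 rose past 2-fold with PHA665752, against 13.1% of all named genes, and 0 fell, against 8.04%. The median log2 ratio was 0.60, against 0.075 over all named genes. Of the 13 ratios 3 were below 0, and TAP2, at -0.995, was just short of 2-fold lower. With MET siRNA 0 rose, against 2.04%, and 0 fell, against 0.696%, with a median of 0.031. Between the controls 3 of the 13 rose past 2-fold, against 2.89% of all named genes, namely HLA-F (1.83), TAP1 (1.74) and NLRC5 (1.02). The median there was 0.66, against -0.010 over all named genes, and all 13 ratios were above 0. The class II median was therefore the higher with PHA665752 (1.40 against 0.60) and the lower between the controls (0.11 against 0.66). NLRC5, the class I counterpart of CIITA, was at 0.88 for the inhibitor and 0.00062 for the siRNA. HLA-F, TAP1, TAP2 and NLRC5 are named after their values were seen.

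**Figure D3:**
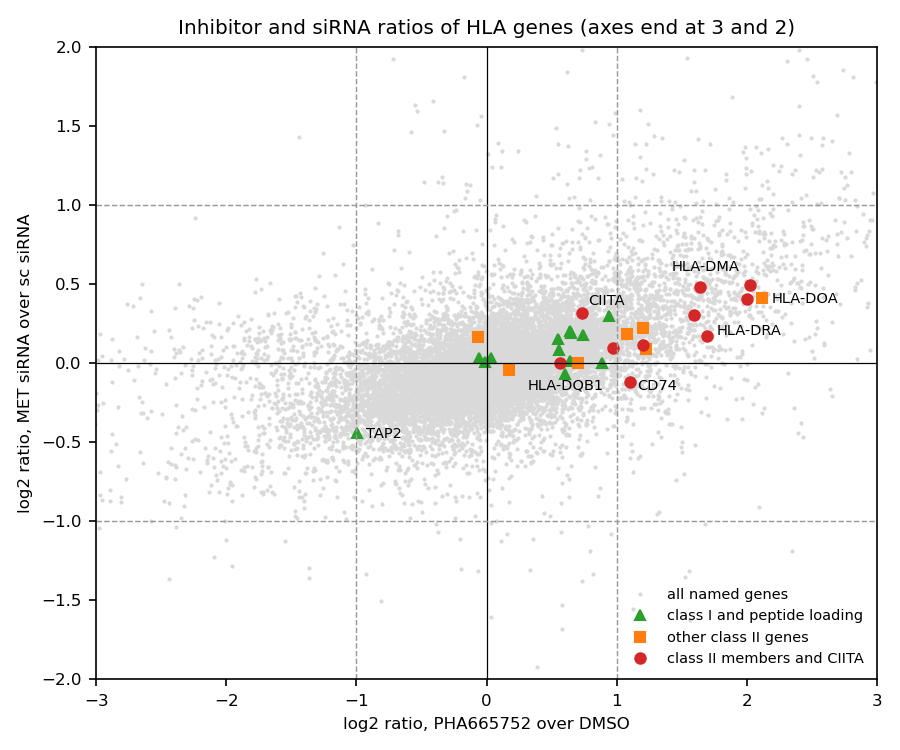
Log2 ratio of PHA665752 over DMSO (horizontal axis) against that of MET siRNA over sc siRNA (vertical axis) for class II members and CIITA (circles), other class II genes (squares), class I and peptide loading genes (triangles) and all named genes (grey dots; those beyond 3 or 2 in size are not drawn), with dashed lines at 2-fold. The class II genes spread to the right as far as 2.12 (HLA-DOA) while none lies above 0.49 on the siRNA axis, and the class I genes end at 0.94 (HLA-F).

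A list of 16 genes held factors of class II promoters, regulators of CIITA, and receptors and kinases of interferon-γ signalling. All were measured. With PHA665752, 0 of them rose past 2-fold, against 13.1% of all named genes, and 2 fell, against 8.04%. The highest inhibitor log2 ratio of the list was that of the kinase JAK1, at 0.97, just short of 2-fold. The median log2 ratio of the list was 0.061, against 0.075 over all named genes. The RFX subunits RFX5, RFXAP and RFXANK, which bind the X box with CIITA as partner, had inhibitor log2 ratios of -0.19, 0.15 and 0.032. RFX5 had signals of 1957, 1477, 2030.5 and 2206. RFX5 was lowest with PHA665752 and highest with MET siRNA. The genes lower past 2-fold were PRDM1, a repressor of CIITA in plasma cells, at -1.77, and USF1, a factor of an interferon-inducible CIITA promoter, at -1.32. PRDM1 had signals of 96.1, 24.2, 93.2 and 66.2, so that it was lower with each treatment than with its control, by 0.54 on the log2 scale with the siRNA. USF1 was dim, at 44.9, 15.5, 31.9 and 20.6.

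IRF1, an interferon-inducible activator of CIITA, was past 2-fold higher between the controls and not with the inhibitor. IRF1 had signals of 178, 167, 361 and 524, and log2 ratios of 0.13, 0.49 and 1.28 in pair order. Both transfected arrays were thus above both others. In the control pair, transfection, the siRNA itself, the DMSO vehicle and any difference in culture or harvest time cannot be told apart. Of these 16 genes, 1 was past 2-fold higher between the controls, which was IRF1, and 1 was lower, NFYA (-1.26), a subunit of the Y box factor. In that same pair CIITA was at 0.72, HLA-DRA at 0.46 and CD74 at 0.41, while HLA-DQA1 and HLA-DQB1 were at -0.085 and -0.040. With MET siRNA 0 of the 16 genes passed 2-fold.

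**Figure D4:**
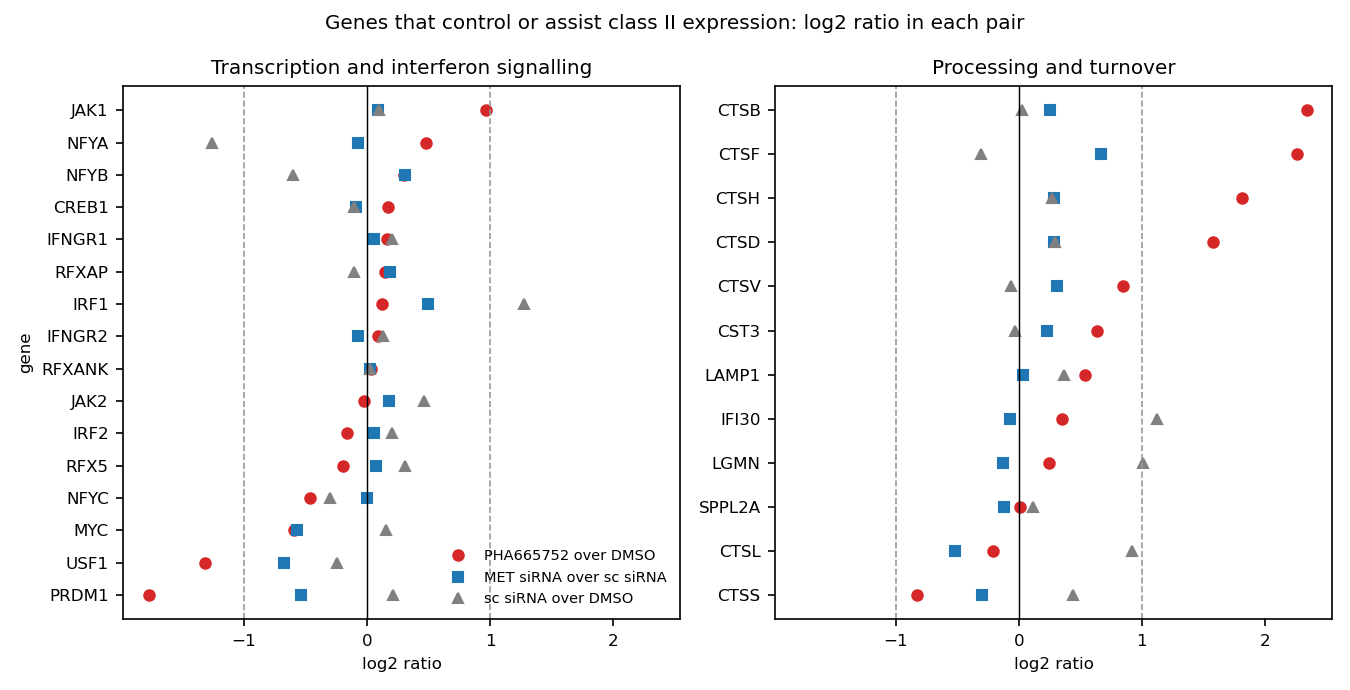
Log2 ratio (horizontal axis) of genes that control class II transcription (left) or act in processing and turnover (right), for PHA665752 over DMSO (circles), MET siRNA over sc siRNA (squares) and sc siRNA over DMSO (triangles), with dashed lines at 2-fold and only genes with an inhibitor ratio drawn. IRF1 lies at 1.28 between the controls and at 0.13 with the inhibitor, while CTSB, CTSF, CTSH and CTSD lie between 1.58 and 2.34 with the inhibitor.

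Among genes of endosomal processing and class II turnover, 12 of 15 had a ratio, and 4 rose, against 13.1% of all named genes, and 0 fell, against 8.04%, past 2-fold with PHA665752, with a median of 0.59 against 0.075 over all named genes. The risers were the lysosomal cathepsins CTSB (2.34), CTSF (2.27), CTSH (1.81) and CTSD (1.58). CTSF had signals of 6866, 28471, 4672 and 7683, and its siRNA log2 ratio of 0.67 was the largest of the list. CTSS, the cathepsin that trims the invariant chain in antigen-presenting cells, was not past 2-fold in any pair, with signals of 206, 100.05, 235 and 198 and log2 ratios of -0.83, -0.30 and 0.44 for inhibitor, siRNA and controls. Between the controls, IFI30, a thiol reductase inducible by interferon-γ, and LGMN, an asparagine endopeptidase, were higher, at 1.12 and 1.01. With MET siRNA 0 of the 12 passed 2-fold, and the median was 0.13.

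Genes with ratios most like those of the class II genes were sought outside the class II lists, among 13057 genes well above background on all arrays. The measure was the Euclidean distance over the 3 log2 ratios to the mean of the 10 genes (1.35, 0.23 and 0.20 for inhibitor, siRNA and controls). The nearest were FANK1 (distance 0.077), GABRE (0.091), PLXNA3 (0.093), C14orf93 (0.096) and CLBA1 (0.098). As a reference, the median distance of the 10 genes from their own mean was 0.48, and 616 of the 13057 other genes lay within it.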

How the data were processed

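Total RNA of Hs746T cells was labelled with Cy3 and hybridized to 4 Agilent human V2 arrays. The authors deposited the spot intensity of Feature Extraction (version 11.5.1.1 per the file headers, which name hg19; the methods name another version), background-subtracted and spatially detrended, without normalization between arrays. A series matrix held the same values within 0.05 for the 33128 probes spotted once. Control spots and spots with outlier marks were left out, no spot was saturated, spots of a probe were averaged as log2, and the 75th percentile of each array (signals of 831 to 990.1) was subtracted. Where only 1 array of a pair was well above background, a bound replaced the ratio, and with neither there was no ratio. Of 34127 probes, 25771 (75.5%) matched a RefSeq symbol (GRCh38.p14, used for names). The probe with the highest mean signal, valued on every array, stood for its gene, and 18755 genes had such a probe. Depth does not apply to arrays; their number limits precision. Named genes were every member, fixed lists of other class II, transcription, processing, class I and marker genes, MET, and the 5 genes nearest to the members. In the transcription and processing lists, values are given for genes past 2-fold in any pair and for RFX5, RFXAP, RFXANK, IRF1 and CTSS. JAK1 was added after its value was seen. A gene of the transcription list and one of the blood cell list are not reported here, and the counts of these lists leave them out. Promoter letters were chosen with the windows in view. Members and lists were chosen with earlier results of these data known. Tested on simulated data for a pair of arrays with 17997 probes, the procedure put 200 of 200 changed probes and 0 unchanged probes past 2-fold. Every planted change was larger than 2-fold, the noise was of the size between spots, and dim probes were left out. The simulation thus checks the calculation only and not how reliable the calls are in these data. The alternatives were other scalings (50th percentile, median of probes well above background, quantile), normexp with an offset of 50, plain subtraction, a floor of 5, stricter or no filters on dim probes, background marks ignored, the median over probes and the series matrix. Normexp used the median spot signal, since no mean signal was in the files. Python 3.11.15, numpy 2.4.6, pandas 2.3.3, matplotlib 3.10.9, R 4.3.3 and limma 3.58.1 were used.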

Additional observations from a re-analysis of the deposited data

How the results depend on the processing

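No paired analysis was possible because each condition had a single array, and for the same reason no array could be left out. The count of class II genes past 2-fold higher with PHA665752 was 7 and lay between 5 and 7 over the 11 alternatives, and it stayed at 0 for MET siRNA and for the controls. The inhibitor median of 1.40 moved by more than the spot noise to 1.15 with the 50th percentile and with the floor of 5 after median scaling, 1.30 with the median of probes well above background, 1.10 with normexp, 1.27 with plain background subtraction and 1.18 when a gene took the median of its probes. The siRNA median of 0.24 moved to -0.063 with the median of probes well above background, where the siRNA ratios of HLA-DRA (-0.13), HLA-DRB1 (-0.20), HLA-DPA1 (-0.18) and HLA-DQB1 (-0.30) turned sign too. The siRNA median of all genes moved to -0.31 with it, so the class II median stayed above that of all genes. HLA-DQB1 was below 0 under 6 of the 11 alternatives. The control median of 0.11 moved to 0.011 with the 50th percentile and with the floor. The filters on dim probes returned the reported values for single genes, whose probes were above background on every array, and the floor repeated those of the 50th percentile. Under the other 8 alternatives, 160 of 240 values of single genes lay within the spot noise of the value reported, 80 moved by more or changed sign below 2-fold, and 0 reversed past it. Over all named genes the number higher past 2-fold was 1876, 278 and 413 for PHA665752, MET siRNA and the controls, and 854, 62 and 170 with normexp, while without a filter on dim probes it was 2429, 641 and 806. For lower genes the counts were 1151, 95 and 165, with 838, 16 and 48 under normexp and 1428, 379 and 428 without a filter. The lowest signals well above background, 10.2 to 17.4, limit what can be said of HLA-DQA1, CD74, HLA-DOB and the dim probes of CIITA and HLA-DOA.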
